A study of Mus musculus with 4 samples.

Results

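The type 17 response was examined in single cells from mouse Peyer's patches, lymphoid organs in the wall of the small intestine, through 7 genes: the cytokine genes Il17a, Il17f and Il22, the receptor genes Il23r, Il1r1 and Il1r2, and the checkpoint receptor gene Lag3. These are 7 of the 31053 genes in the deposited matrices. They were read in the barcodes that the authors' deposited cell table, which holds B-lineage cells, leaves out, and in which mitochondrially encoded genes took under 10% of the gene UMIs (unique molecular identifiers, each standing for 1 captured transcript). Of 31885 barcodes in 4 libraries, 6554 met this rule. They were split into 3257 Cd3-positive cells, with at least 1 UMI of Cd3d, Cd3e or Cd3g, and 3297 Cd3-zero cells without one.

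The mice were female wild-type animals from Taconic, either SFB-negative or SFB-positive, where SFB are segmented filamentous bacteria of the gut. For each group the Peyer's patches of 5 mice were pooled, and CD45+ cells were sorted and captured with a 3′ droplet kit, about 6000 cells being loaded for a target of 4000. There were 2 libraries per group, and the labels do not say whether the replicates came from separate pools of mice, so the p-values here measure the spread between libraries, which may be technical. All groups shared genotype, supplier, sex and sort.

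SFB attach to the epithelium of the ileum and are the textbook inducers of intestinal Th17 cells, the CD4+ T cells that make IL-17A, IL-17F and IL-22. Group 3 innate lymphoid cells (ILC3), which lack a T-cell receptor, make the same cytokines. In both cell types IL-23 and IL-1 promote this programme through the IL-23 receptor and IL-1R1, while IL-1R2 is a decoy that binds IL-1 without signalling and LAG-3 is an inhibitory receptor that binds MHC class II.

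In the GRCm38 assembly with GENCODE M21 genes, Il17a lies on chromosome 1 at chr1:20730905-20734496 on the plus strand, and Il17f lies beside it at chr1:20777146-20790617 on the minus strand, 42649 bases away with 0 coding genes between. The IL-1 receptor genes form a second neighbouring pair, with Il1r2 at chr1:40074079-40125231 and Il1r1 at chr1:40225080-40317257, both on the plus strand, 99848 bases apart and again with 0 coding genes between. Il22 lies at chr10:118204942-118210047 on the plus strand, Il23r at chr6:67422932-67491855 and Lag3 at chr6:124904361-124911705, both on the minus strand. All 7 are protein-coding genes. Non-coding gene models overlap Il1r1 (Gm38070) and Il1r2 (Gm37347 and, on the opposite strand, Gm16894), so reads there could be split by the counting.

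Promoter sequences of 6 members were matched by symbol in RefSeq's promoter windows on GRCm38.p6, and the 250 bases before each start were searched on both strands for AGGTCA, a half-site that several nuclear receptors are known to bind. The letters were present in 3 of the 6, Il17a, Il17f and Il23r, and in none of the windows of Il22, Il1r1 and Il1r2, against 4607 of all 32851 windows of that length (14.0%). The windows with a match are shown so that the matched letters can be seen in place. They are written 5′ to 3′ along each gene's strand. The matched letters, or their reverse complement where the match is on the reverse strand, are in capitals. The Il17f window lies inside the GENCODE gene given above, before a RefSeq start within it. The 26 bases at its upstream end lie in an annotated Il17f exon and were left out. The stretches cover chr1:20730655-20730904 (plus) for Il17a, chr1:20784271-20784494 (minus, 224 bases) for Il17f and chr6:67491856-67492105 (minus) for Il23r:
Il17a: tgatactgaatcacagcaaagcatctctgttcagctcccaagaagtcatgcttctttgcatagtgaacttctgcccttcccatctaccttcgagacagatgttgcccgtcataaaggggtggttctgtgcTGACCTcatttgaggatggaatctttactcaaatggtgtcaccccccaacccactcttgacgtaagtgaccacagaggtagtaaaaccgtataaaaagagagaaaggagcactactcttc
Il17f: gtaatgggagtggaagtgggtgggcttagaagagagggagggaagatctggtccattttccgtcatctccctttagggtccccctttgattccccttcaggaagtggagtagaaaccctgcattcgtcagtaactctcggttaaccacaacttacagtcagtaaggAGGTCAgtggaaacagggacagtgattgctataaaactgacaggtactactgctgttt
Il23r: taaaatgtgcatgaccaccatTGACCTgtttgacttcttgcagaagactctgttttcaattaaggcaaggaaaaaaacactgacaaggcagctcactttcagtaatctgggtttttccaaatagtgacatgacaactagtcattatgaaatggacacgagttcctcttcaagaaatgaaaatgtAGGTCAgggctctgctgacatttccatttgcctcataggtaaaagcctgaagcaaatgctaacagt
The match lies 120 bases before the start in Il17a on the reverse strand and 58 bases before it in Il17f on the forward strand. Il23r holds 2 matches, 229 bases before the start on the reverse strand and 66 bases before it on the forward strand. A match is a description of the letters and not a shown binding site.

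The Cd3-positive cells numbered 297 and 1256 in SFB-negative replicates 1 and 2 and 321 and 1383 in SFB-positive replicates 1 and 2, with median depths of 1586, 3673, 1476 and 6774 UMIs per cell. The Cd3-zero cells numbered 151, 2227, 127 and 792, with medians of 1068, 1658, 851 and 5432. Replicate number thus went with depth, and also with the Cell Ranger version in the matrix headers and with the antibody tags carried only by the replicate 1 libraries. Values are therefore also given within a replicate number. All 9 T-cell markers were detected in the Cd3-positive cells of every library, at 3365 to 9298 CPM (UMIs of the gene scaled to a total of 1e+06 in that library's class) in all. The Cd3-zero cells were mixed: 37.1% to 57.8% of them per library held at least 3 UMIs of the B-cell genes Cd79a, Cd79b and Ms4a1, against 5.61% to 14.8% of Cd3-positive cells. The 6 T-cell markers other than the Cd3 genes were all detected in Cd3-zero cells too, at 42.8 to 970 CPM in all. No more than 40 cell barcodes recurred between any pair of libraries, and over all pairs of libraries 3 barcodes fell in these classes in both.

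Il17a, the signature Th17 cytokine, was close to absent from the Cd3-positive cells of SFB-negative mice and present in those of SFB-positive mice. It had a UMI in 0 of 297 and 3 of 1256 SFB-negative cells and in 7 of 321 and 36 of 1383 SFB-positive cells, which is 0%, 0.239%, 2.18% and 2.60%. The 0 of 297 allows a share of up to 1.23% by the exact binomial 95% interval. Both SFB-positive libraries were higher than both SFB-negative ones, with no overlap, and the share in B-lineage cells of the authors' table was 0% to 0.271%. Summed levels were 0, 3.78, 323 and 67.3 CPM, from 0, 20, 173 and 773 UMIs. Within replicate 1 the SFB-positive level was at least 55.2-fold higher (a floor of 3 UMIs per library standing for the 0), and within replicate 2 it was 17.8-fold higher (95% interval 11.4 to 29.3). Such intervals and floors cover counting error only. The single cell with most transcripts held 79 and 172 of the UMIs in the SFB-positive libraries, and without it in each library the levels were 0, 0.379, 176 and 52.3 CPM.

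Il17f, encoded next to Il17a and able to pair with its product, followed the same order with fewer cells. It was detected in 0, 1, 3 and 11 Cd3-positive cells (0%, 0.0796%, 0.935% and 0.795%), at 0, 0.189, 37.4 and 13.7 CPM. The groups did not overlap. The difference was at least 6.38-fold in replicate 1 and 72.8-fold (12.9 to 2892) in replicate 2, where the SFB-negative library had 1 UMI. Much of the level came from single cells: 1 cell held 17 of the 20 UMIs in SFB-positive replicate 1 and another held 111 of the 158 in replicate 2, and without them 5.62 and 4.09 CPM remained.

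Il22, which acts on epithelial cells rather than leukocytes, was also found in SFB-negative Cd3-positive cells. It had a UMI in 1, 25, 14 and 42 cells (0.337%, 1.99%, 4.36% and 3.04%), at 52.7, 105, 458 and 133 CPM. The SFB-positive libraries were the higher in both measures, without overlap. The size of the difference varied with the replicate number, at 8.69-fold (5.83 to 13.4) in replicate 1, where the SFB-negative library rests on 1 cell with 27 UMIs, and 1.26-fold (1.15 to 1.39) in replicate 2. In the B-lineage table cells Il22 was found in 0.664% to 1.5%, above the share in the Cd3-positive cells of SFB-negative replicate 1.

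**Figure D1:**
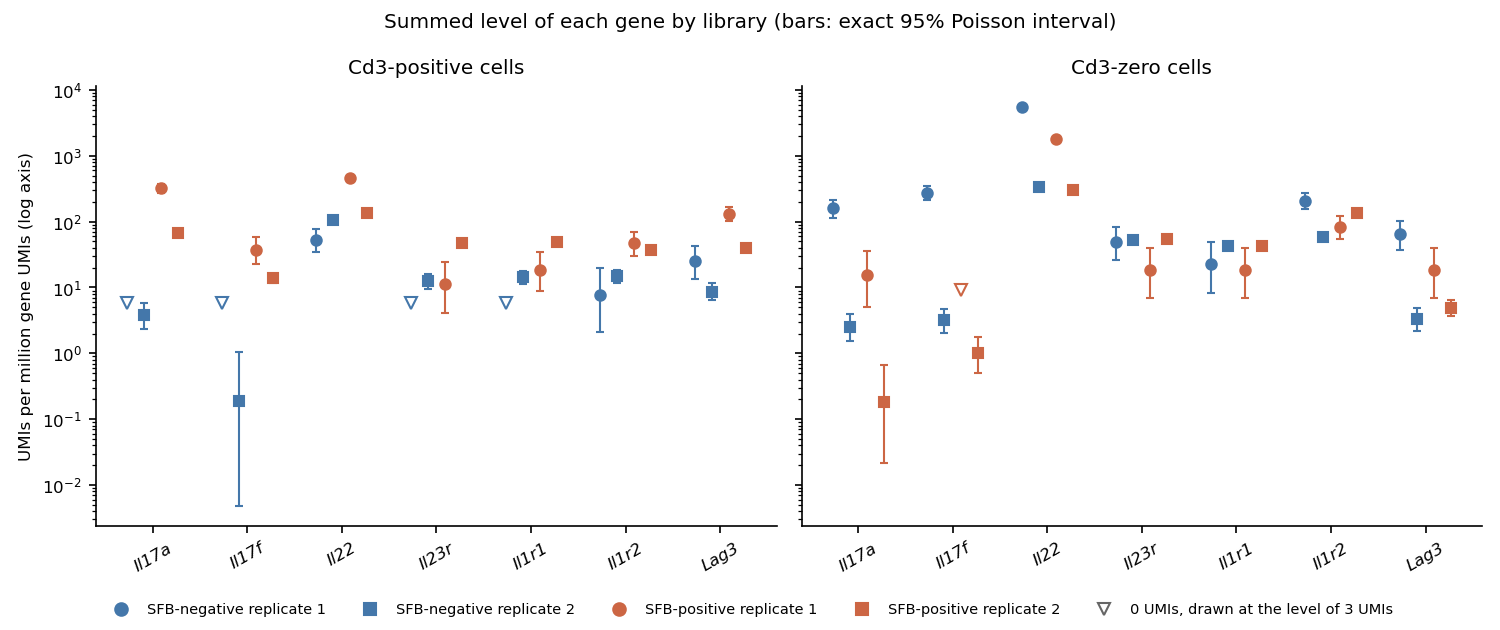
Summed level of each gene per library in Cd3-positive and Cd3-zero cells, in CPM on a log axis, with 1 point per library (circles replicate 1, squares replicate 2), exact 95% Poisson intervals and the groups set apart by colour. Open triangles are libraries with 0 UMIs, drawn at the level of 3 UMIs. In Cd3-positive cells the SFB-positive points lie above the SFB-negative points for 6 of the 7 genes, the exception being Il23r, and in Cd3-zero cells the groups are interleaved for most genes. The share of all genes so separated is not given.

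The receptors for the upstream cytokines were present in more Cd3-positive cells of the SFB-positive than of the SFB-negative library at each replicate number. Il23r, the specific chain of the IL-23 receptor, had a UMI in 0%, 1.27%, 1.87% and 5.35% of cells, at 0, 12.5, 11.2 and 47.5 CPM. Its shares did not overlap between groups but its summed levels did. The level was at least 1.91-fold higher in the SFB-positive library within replicate 1 and 3.81-fold higher (2.95 to 5.00) within replicate 2.

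Il1r1, the signalling IL-1 receptor, had a UMI in 0%, 3.26%, 2.80% and 13.4% of Cd3-positive cells, at 0, 14.4, 18.7 and 49.3 CPM. Here the shares overlapped and the levels did not, with a ratio of at least 3.19 within replicate 1 and of 3.43 (2.70 to 4.42) within replicate 2. Il1r1 transcripts were widespread outside T cells, since 0.0494%, 2.22%, 0.0880% and 8.83% of the B-lineage table cells held a UMI, the high shares again falling in the deeper replicate 2 libraries. In the replicate 2 libraries the B-lineage levels were 5.95 and 16.2 CPM.

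Il1r2, the decoy receptor, had a UMI in 1.01%, 2.55%, 3.43% and 7.81% of Cd3-positive cells, at 7.80, 14.9, 46.7 and 37.0 CPM. Neither measure overlapped, with ratios of 5.98 (2.07 to 23.7) and 2.48 (1.95 to 3.19) within replicates 1 and 2. Its share in B-lineage table cells was 0.741%, 2.51%, 0.675% and 6.86%, which is close to the Cd3-positive share in both replicate 2 libraries. On the CPM scale those B-lineage cells held 7.44 and 14.1 in replicate 2.

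Lag3, which activated T cells carry, had a UMI in 4, 40, 27 and 162 Cd3-positive cells, or 1.35%, 3.18%, 8.41% and 11.7%. Levels were 25.4, 8.69, 131 and 39.9 CPM. The SFB-positive libraries were higher in both measures without overlap, and the ratios within replicates 1 and 2, 5.16 (2.83 to 10.2) and 4.6 (3.39 to 6.37), had overlapping intervals. Over all B-lineage table cells the share was at most 0.257% per library. Cluster 6 of that table was an exception, with 12 UMIs in 12 of its 128 cells (9.38%, all libraries together), at 4.52 to 23.1 CPM.

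Deeper cells show more genes, so every cell was also thinned to 1000 UMIs, leaving out 13, 24, 26 and 3 Cd3-positive cells below that depth. Thinned shares of Il17a were 0%, 0.0812%, 2.03% and 1.16%, and those of Lag3 were 0.704%, 0.893%, 5.76% and 2.75%. Il23r had 0%, 0.568%, 0.678% and 2.17%, Il1r1 0%, 1.22%, 1.69% and 2.83%, and Il1r2 0.352%, 0.406%, 2.03% and 2.03%. At equal depth the SFB-positive libraries were higher than both SFB-negative libraries for each of these 5 genes, as they were for Il22 (0.352%, 1.06%, 4.07% and 1.74%) and Il17f (0%, 0%, 0.678% and 0.145%). These thinned values rest on few cells: Il23r on 2 in SFB-positive replicate 1 (0.0822% to 2.43%) and Il17f on 2 in each SFB-positive library. An exact two-sided permutation test over 4 libraries has 6 groupings and gave p = 0.333 for each non-overlapping share, the smallest value it can give. The share of all genes whose groups did not overlap is not given here, so the lack of overlap is a description only.

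**Figure D2:**
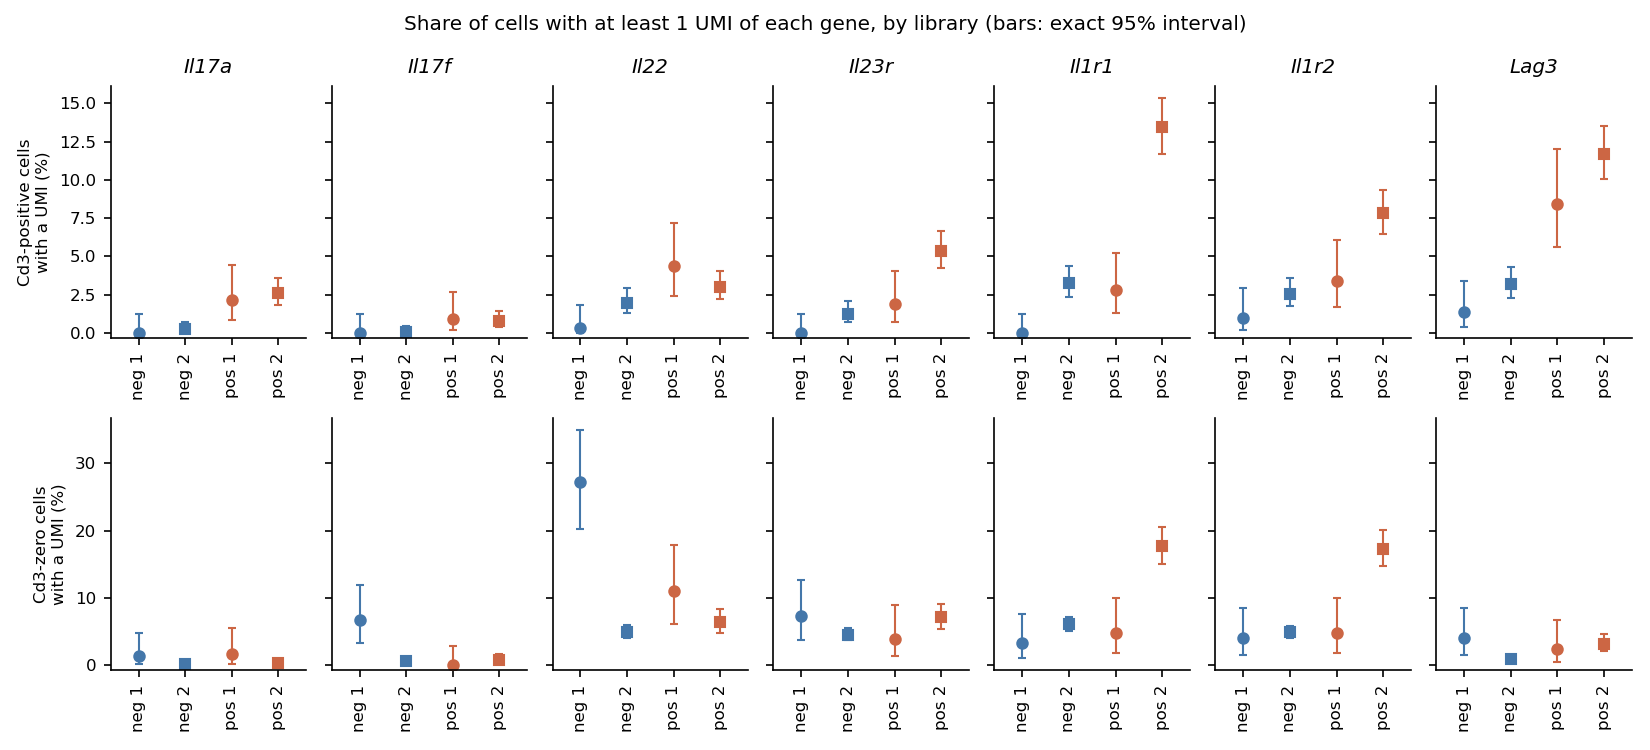
Percent of cells with at least 1 UMI of each gene per library, with exact binomial 95% intervals, for Cd3-positive cells in the upper row and Cd3-zero cells in the lower row, whose axes differ. Lag3 reaches 8.41% and 11.7% in the SFB-positive Cd3-positive cells against 1.35% and 3.18% in the SFB-negative ones.

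Across all genes, the summed counts were tested with edgeR's quasi-likelihood test and Benjamini-Hochberg adjustment. Comparing SFB-positive with SFB-negative Cd3-positive cells without a term for replicate number called none, 0 of 10079 (0%), although 23 genes had an unadjusted p under 0.05. DESeq2 on the same sums called 2 genes, 1 of them Il17a with an adjusted p of 0.00169. The edgeR log2 differences of all 7 members were nonetheless positive: 6.09 ± 1.35 (SE) for Il17a, 6.90 ± 1.31 for Il17f, 1.82 ± 0.88 for Il22, 1.77 ± 1.17 for Il23r, 1.79 ± 1.11 for Il1r1, 1.66 ± 0.65 for Il1r2 and 2.34 ± 0.96 for Lag3. The fitted values of the 4 members with a library at 0 (Il17a, Il17f, Il23r and Il1r1) depend on the prior count and are no bounds.

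With the replicate number as a term, 243 of the 10079 genes were called (2.41%), 77 of them higher (0.764%) and 166 lower (1.65%), and 6 of the 7 members were among the higher. Il17a was higher by 4.65 ± 0.35 on the log2 scale (edgeR adjusted p = 8.51e-34), Il17f by 6.14 ± 0.82 (6.17e-11) and Lag3 by 2.08 ± 0.28 (1.70e-10). Il17f met the count filter only through the SFB-positive libraries, so a call of it could only be upward. Il17a, Il23r and Il1r1 were at 0 in SFB-negative replicate 1, so each needed at least 1 SFB-positive library above the filter's minimum to be tested. Their upward calls are therefore not independent of the filter. Il23r was higher by 1.76 ± 0.33 (2.05e-05), Il1r1 by 1.68 ± 0.32 (2.59e-05) and Il1r2 by 1.30 ± 0.30 (0.00126). Il22 had a difference of 1.26 ± 1.37, with an adjusted p of 0.922. The median over the 7 members was 1.76, against -0.00453 over all genes tested. The members were chosen with earlier results of these data known, so neither this contrast nor the count of members called is independent support. That model leaves 1 residual degree of freedom per gene and took its spread from all genes, so the very small p-values do not measure the spread of the gene itself. The 6 calls therefore hold only within replicate numbers, and none passed in edgeR on all 4 libraries with the count filter but without that term. On leaving out SFB-positive replicate 2, which left 1 SFB-positive library, Il17a had 6.77 ± 1.06 without the term. The 6 calls held with the term when the cell of most cytokine UMIs was left out of each library.

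**Figure D3:**
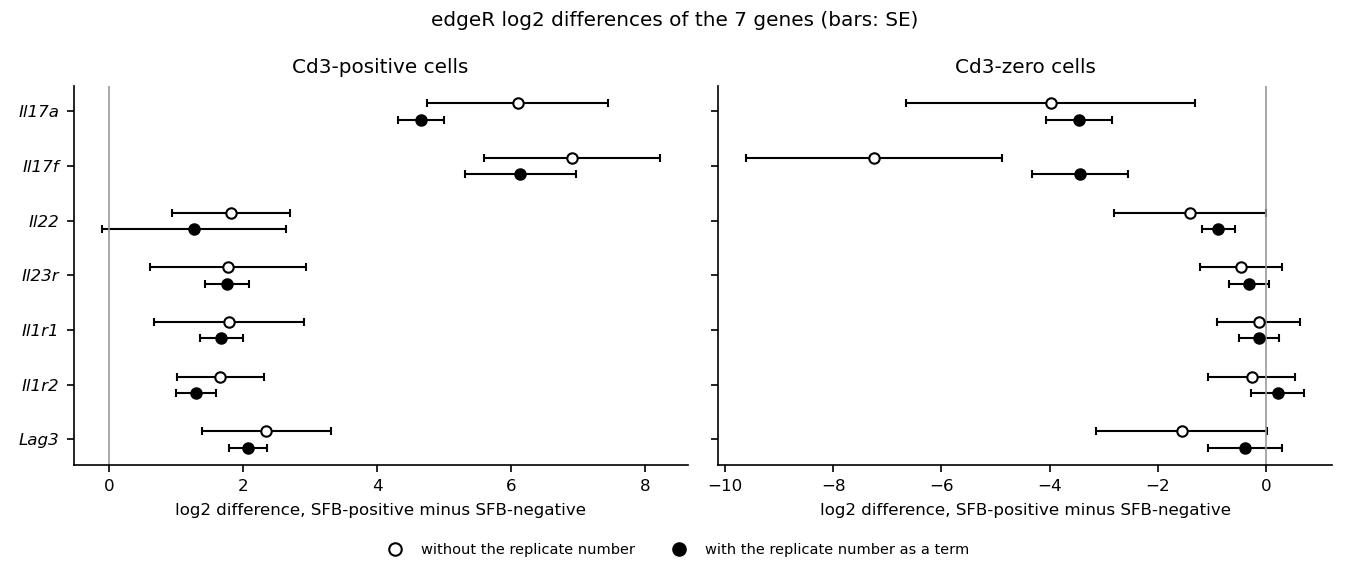
Log2 difference between SFB-positive and SFB-negative cells for each gene, with standard errors, in Cd3-positive and Cd3-zero cells and with and without a term for replicate number. All 7 Cd3-positive values are above 0 in both models, whereas the Cd3-zero values without the term are all below 0.

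Markers of other cell types were not level across these sums. In Cd3-positive cells all 6 B-cell markers were detected in every library, at 2074, 1129, 2157 and 1321 CPM summed. The 6 regulatory T-cell markers summed to 617, 879, 674 and 1191 CPM, and the 6 follicular helper markers to 293, 575, 558 and 845, with Il21 and Sostdc1 at 0 in SFB-negative replicate 1. Markers of NK cells or ILC1 summed to 1278, 114, 411 and 163 CPM, with Eomes and Tbx21 at 0 in the first library and Ncr1 at 0 in both SFB-positive libraries. Their part in the differences was not tested. In sums of this kind, fewer cells of a type and less RNA per cell cannot be told apart.

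In Cd3-zero cells the cytokines had the opposite arrangement or none. Il22 had a UMI in 41 of 151 and 110 of 2227 SFB-negative cells (27.2% and 4.94%) and in 14 of 127 and 51 of 792 SFB-positive cells (11% and 6.44%), at 5421, 339, 1791 and 306 CPM. SFB-negative replicate 1 stood above the rest, and the groups overlapped. The SFB-positive to SFB-negative ratio was 0.330 (0.299 to 0.364) in replicate 1 and 0.904 (0.858 to 0.952) in replicate 2. The 9 ILC3 markers, a list that includes Il22, Il23r and Il1r1, were all detected in each library and summed to 6637, 876, 2197 and 716 CPM, sums that hold the Il22 UMIs themselves. The 6 of the list that are not among the 7 genes summed to 1144, 442, 369 and 312 CPM. Epithelial markers summed to 515, 13.1, 4589 and 61.6 CPM in the same cells, and neutrophil markers to 379, 1.47, 49.6 and 11.1; their part was not tested.

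Il17f was found in 10 and 12 SFB-negative and 0 and 6 SFB-positive Cd3-zero cells (6.62%, 0.539%, 0% and 0.758%), at 277, 3.21, 0 and 0.996 CPM. The shares overlapped between groups, and within replicate 2 the SFB-positive share was the higher. In SFB-negative replicate 1, 1 cell held 40 of the 73 UMIs, and the level without it was 126 CPM. The levels did not overlap, being lower in SFB-positive cells by at least 29.8-fold in replicate 1 and with a ratio of 0.310 (0.137 to 0.658) in replicate 2. Il17a was scarce, with 2, 3, 2 and 2 cells and 42, 19, 5 and 2 UMIs, of which 41 lay in 1 cell of SFB-negative replicate 1.

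The receptors were spread through the Cd3-zero cells of both groups. Il23r had a UMI in 7.28%, 4.54%, 3.94% and 7.07% of cells, at 49.2, 52.0, 18.6 and 54.5 CPM, and Il1r1 in 3.31%, 6.06%, 4.72% and 17.7%, at 22.7, 43.3, 18.6 and 43.1 CPM. Neither gene's levels separated the groups. Il1r2 had a UMI in 3.97%, 4.89%, 4.72% and 17.3%, at 208, 58.7, 83.7 and 134 CPM, and its ratio turned from 0.402 (0.244 to 0.648) in replicate 1 to 2.28 (2.05 to 2.54) in replicate 2. Lag3 was in 3.97%, 0.943%, 2.36% and 3.16% of cells, at 64.4, 3.34, 18.6 and 4.89 CPM, again without separation.

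Between the groups edgeR called 0 of 11311 genes in Cd3-zero cells (0%), where 34 had an unadjusted p under 0.05, and DESeq2 called 6 genes but 0 of the 7 members. With replicate number as a term, 71 genes were called (0.628%), 42 of them lower (0.371%), and Il17a was the 1 member among them, at -3.46 ± 0.61 with an adjusted p of 0.0323. That value rests on few transcripts: leaving out the 1 cell with most cytokine UMIs per library gave -1.63 ± 1.06 with the term (adjusted p = 0.625), and in the model without the term it gave 0.88, against 0.75 on leaving out SFB-negative replicate 1. Il17f had -3.44 ± 0.88 (adjusted p = 0.163) and Il22 -0.89 ± 0.31 (0.263) with the term. In this class Il17f met the count filter only through the SFB-negative libraries, so its direction was set by the filter. Without SFB-negative replicate 2, which left 1 SFB-negative library, Il17f had -8.41 ± 1.43 in the model without the term. The remaining members lay between -0.39 for Lag3 and 0.21 for Il1r2, and 0 of them were called.

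Whether the SFB difference itself differed between the classes was tested as an interaction in edgeR over 8 sums with library as a block. Of 11513 genes, 1 was called (0.00869%, while 581 had an unadjusted p under 0.05), and it was Il17f. Its log2 SFB difference was larger in Cd3-positive than in Cd3-zero cells by 10.99 ± 1.07, with an adjusted p of 4.77e-06. Over 11 alternatives the value ran from 7.92 to 17.3 with adjusted p up to 0.0667, and it was called in 10 of them, the exception being without SFB-positive replicate 2. The size of this fitted value depends on the prior count, since Il17f was at 0 in 1 library of each class. Il17f also met the count filter only through libraries in which it was high, so its call is no independent support. Il17a had an interaction of 8.44 ± 3.27, Lag3 2.63 ± 0.75, Il23r 2.13 ± 0.62 and Il1r1 1.96 ± 0.55, with adjusted p from 0.490 to 1. Without SFB-negative replicate 1 the interactions included 6.12 ± 0.73 for Il17a, 1.78 for Il23r and 1.73 for Il1r1. Without SFB-negative replicate 2 they included 5.13 for Il22, 10.6 for Il23r (with a library at 0) and 4.37 for Lag3. That Il22 value rests on an SFB-negative library with 1 Il22 cell of 27 UMIs among its Cd3-positive cells. Leaving out 1 library left its SFB group with 1 library, so a call made that way has no replication in that group.

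The transcripts of the members were divided unevenly between the classes. Of all UMIs in the files, pooled so that the deepest libraries weigh most, Cd3-positive cells held 90.4% of 1068 for Il17a, 80.1% of 734 for Lag3 and 57.7% of 310 for Il17f. Cd3-zero cells held 75.0% of 10558 UMIs for Il22, 59.2% of 1705 for Il23r and 52.7% of 3797 for Il1r2. Il1r1 was divided 3 ways, with 24.0% in Cd3-positive cells, 29.9% in Cd3-zero cells and 42.9% of its 2715 UMIs in the B-lineage table cells. For Il17a and Il17f the split differed by group. In the SFB-negative libraries Cd3-positive cells held 20 Il17a UMIs against 61 in Cd3-zero cells, and 1 Il17f UMI against 97. In the SFB-positive libraries the counts were 946 against 7 and 178 against 11.

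Compared per library in edgeR with library as a block, 2770 of 10172 genes differed between Cd3-positive and Cd3-zero cells (27.2%), and 1 of the 6 members tested was among them. Il1r2 was lower in Cd3-positive cells, by 1.86 ± 0.45 on the log2 scale (adjusted p = 0.0251). This call was lost without SFB-negative replicate 2 (adjusted p = 0.0776), without SFB-positive replicate 2 (0.0625) and without the cell of most cytokine UMIs per library and class (0.0661). Il17a had 2.38 ± 2.65 (0.612), Lag3 2.03 ± 0.83 (0.178) and Il22 -2.28 ± 1.22 (0.304). Without SFB-negative replicate 1, Lag3 was called higher (2.71 ± 0.28, adjusted p = 4.14e-20) and Il22 lower (-1.35 ± 0.25, 4.58e-07) in Cd3-positive cells. Il23r, at -1.06 ± 0.62 (0.307), was called lower without SFB-negative replicate 1 (0.00885) and without SFB-positive replicate 1 (0.0402), and Il23r (-2.96 ± 0.38, 1.11e-05) and Il1r1 (-2.07 ± 0.38, 0.000627) were called lower when cells with 3 or more B-cell marker UMIs were left out. Il17f did not reach the count minimum for this test.

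Cells with Il17a carried the receptor genes together. Of the 46 Cd3-positive cells with an Il17a UMI, 32 also had Il23r (69.6%, 54.2% to 82.3%), against 1.99% of the other Cd3-positive cells. Il1r1 was in 33 (71.7% against 6.32%), Il1r2 in 29 (63.0% against 3.89%) and Lag3 in 24 (52.2% against 6.51%). The sister cytokines were less frequent in absolute number, with Il22 in 15 (32.6% against 2.09%) and Il17f in 10 (21.7% against 0.156%). Cells with Il17a were deeper, at a median of 7563 UMIs against 4533, and depth raises every co-detection. Thinned to 1000 UMIs, 23 cells kept an Il17a UMI, of which 8 had Il23r (34.8% against 0.979%), 9 had Il1r2 (39.1% against 0.979%) and 9 had Lag3 (39.1% against 1.86%).

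Most of these cells came from 1 library. SFB-positive replicate 2 gave 36 of the 46, and 28 of its 36 had Il23r, whereas 1 of 7 did in the shallower SFB-positive replicate 1. The SFB-negative libraries gave 3 Il17a cells, all 3 with Il23r and with Il1r1, and 0 with Il1r2 or Lag3. Leaving out SFB-positive replicate 2, the share of Il17a cells with Il23r was 40.0%.

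The 15 Cd3-positive cells with Il17f overlapped those with Il17a in 10 cases, and 13 of them (86.7%) had Il23r and 11 (73.3%) had Il1r2. The 82 cells with Il22 were less uniform. Il1r1 was in 46 of them (56.1%) and Il23r in 40 (48.8%), but Il17a in 15 (18.3%) and Lag3 in 10 (12.2%, against 7.02% of other cells). In SFB-negative mice 1 of 26 Il22 cells had Il17a and 0 had Lag3, and in SFB-positive mice 14 of 56 had Il17a and 10 had Lag3.

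Cells with more than 1 of the cytokines were found almost wholly in SFB-positive mice among Cd3-positive cells: 0, 1, 5 and 19 cells per library held at least 2 of Il17a, Il17f and Il22. Any of the 3 was detected in 0.337%, 2.15%, 5.61% and 4.99% of cells, and all 3 in 3 cells. Cells with 4 or more of the 7 members numbered 0, 2, 4 and 35, and 1 cell of SFB-positive replicate 2 had all 7. At least 2 members were found in 0.337%, 2.23%, 5.30% and 10.8% of cells, a count that also follows the depth of the libraries.

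**Figure D4:**
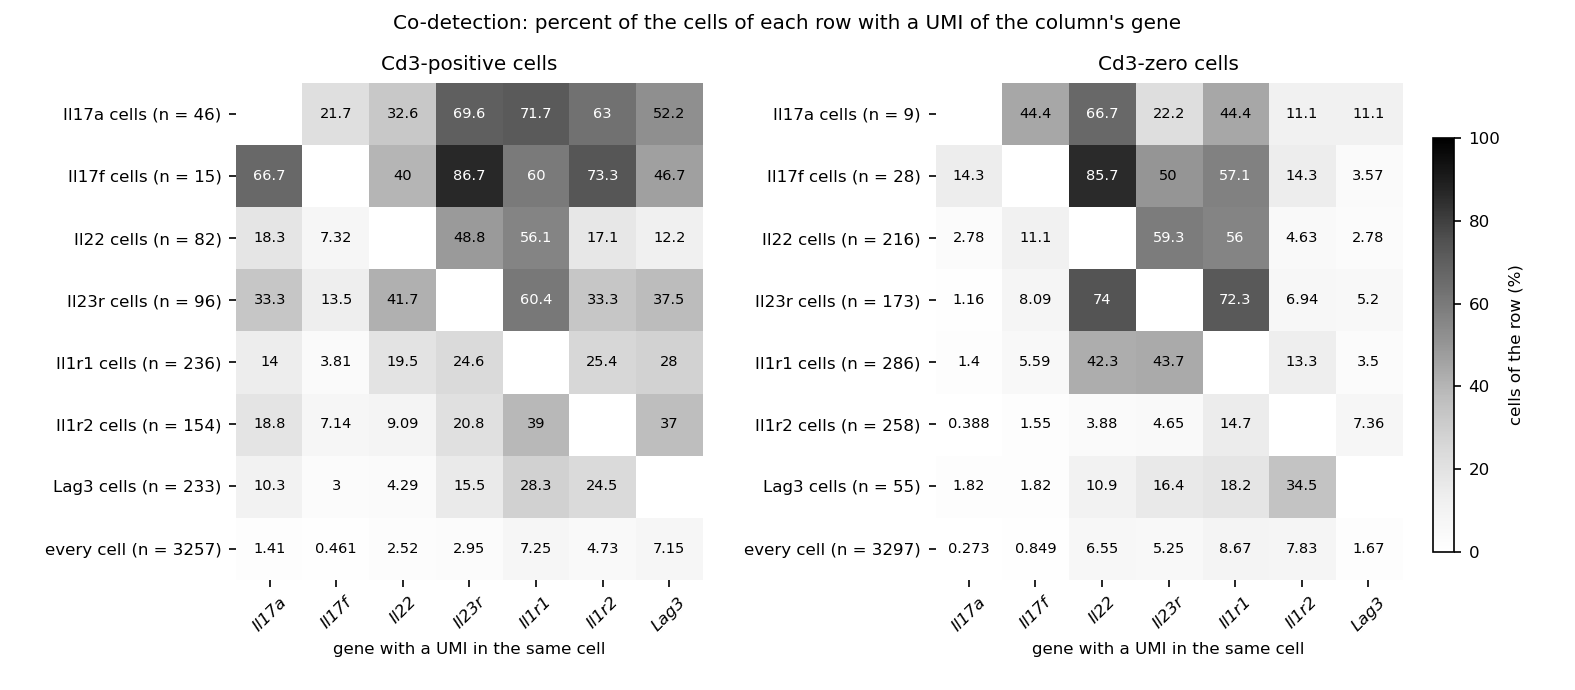
Percent of cells with 1 member that also held a UMI of another, in Cd3-positive and in Cd3-zero cells, all libraries together and darker for a higher percent, with the share over every cell in the bottom row. In Cd3-positive cells Il17a cells carried Il23r, Il1r1, Il1r2 and Lag3 in 52.2% to 71.7% of cases, and in Cd3-zero cells Il22 cells carried Il23r and Il1r1 but few carried Il1r2 (4.63%) or Lag3 (2.78%).

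In Cd3-zero cells Il22 was again found with Il23r and Il1r1. Of 216 cells with Il22, 128 had Il23r (59.3% against 1.46% of other cells) and 121 had Il1r1 (56.0% against 5.36%). Il17f was in 24 (11.1% against 0.130%) and Il17a in 6. Il1r2 was in 10 (4.63%), below its share of 8.05% in the other cells, and Lag3 in 6. Thinned to 1000 UMIs, 63 of 166 Il22 cells kept Il23r (38.0% against 1.47%) and 56 kept Il1r1 (33.7% against 1.96%). Looking from the other side, 24 of the 28 Il17f cells had Il22 (85.7%) and 4 had Il17a, and 128 of the 173 Il23r cells had Il22 (74.0%). Cells with at least 2 of the cytokines numbered 9, 10, 2 and 5 per library.

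The Il17a transcripts of Cd3-positive cells lay in cells with Cd4, the co-receptor of helper T cells. Cd4 was detected in 33 of the 46 Il17a cells (71.7% against 30.5% of others), and cells with Cd4 held 93.6% of the Il17a UMIs. Ccr6, the chemokine receptor typical of Th17 cells, was found in 28 (60.9% against 8.50%). Trdc, the constant region of the gamma-delta receptor, was in 2 (4.35% against 4.27%) and Cd8a in 1. The B-cell gene Cd79a was in 21.7% of Il17a cells and 21.9% of the others. As a share of Cd4 cells, Il17a was in 0 of 34, 2 of 309, 5 of 66 and 26 of 604, or 0%, 0.647%, 7.58% and 4.30%, again without overlap between groups.

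Cd3-positive cells with Il22 were described by the other genes they held. Cd4 was in 7 of 26 in SFB-negative mice (26.9%, 11.6% to 47.8%) and in 39 of 56 in SFB-positive mice (69.6%, 55.9% to 81.2%). Kit, a receptor that ILC3 carry, was in 7 of 26 and 7 of 56, and Trdc in 5 of 26 and 2 of 56. The shares pool the cells of a group and are a description, since 25 of the 26 SFB-negative cells came from replicate 2. In that library 1.99% of Cd3-positive cells had an Il22 UMI, against 1.5% of B-lineage table cells, and 9 of the 25 held 3 or more. As a share of Cd4 cells, Il22 was in 0%, 2.27%, 9.09% and 5.46%. The Cd4 share of Cd3-positive cells without Il22 was 22.0% and 38.3% in the groups, at median depths of 3329 and 6286 UMIs.

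Lag3 cells were drawn from several T-cell subsets. Of the 233 Cd3-positive Lag3 cells, 60.5% had Cd4 (28.8% of others), 40.8% had Cxcr5 (14.1%), 33.9% had Pdcd1 (9.36%), 11.2% had Foxp3, the regulatory T-cell factor (2.15%), and 12.0% had Il10 (0.992%). Cxcr5 and Pdcd1 mark follicular helper cells. Most Lag3 cells came from SFB-positive replicate 2, the deepest library at a median of 6774 UMIs per Cd3-positive cell. The other cells pool all libraries, and depth raises every such share. Per library Lag3 was in 2.94%, 6.15%, 19.7% and 17.9% of Cd4 cells, and in 4 of 31 and 22 of 55 Foxp3 cells of the replicate 2 libraries. In SFB-negative mice 52.3% of 44 Lag3 cells had Pdcd1, and in SFB-positive mice 29.6% of 189 did. In each group most of these cells came from replicate 2, so the contrast is a description only.

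Il22 of Cd3-zero cells lay in cells with ILC3 genes. Il7r was in 173 of the 216 Il22 cells (80.1% against 6.95%) and Kit in 124 (57.4% against 4.61%). Ncr1, which marks a subset of ILC3 and NK cells, was in 17. Transcripts of Trac, the alpha chain of the T-cell receptor, were in 4 (1.85%), although Trbc2 was in 88 (40.7% against 5.42%). Cd79a was in 28.2% of Il22 cells and 64.8% of the others.

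Taking the 266 Cd3-zero cells with Kit as a class, 46.6% had Il22, 48.9% had Il23r, 44.7% had Il1r1 and 7.14% had Il17f. They held 63.3% of the Il22 UMIs and 81.1% of the Il23r UMIs of the class without Cd3.

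Pooled over the libraries, Il1r2 of Cd3-zero cells lay mainly in cells with Lyz2 or Itgax and in cells with Kit. Cells with Lyz2 or Itgax, genes of macrophages and dendritic cells, were 227 in number and held 71.5% of its UMIs, and 38.8% of them had one. Cells with Kit held 76.6% of the Il1r2 UMIs and cells with Cd79a 42.9%, and these subsets overlap. Per library the Lyz2 or Itgax cells held 90.9%, 46.9%, 44.4% and 78.5% of the UMIs, and the Kit cells 38.2%, 66.3%, 0% and 82.5%. Lag3 of Cd3-zero cells was shared with Il1r2 in 19 of 55 cells (34.5%, against 7.37% of others).

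**Figure D5:**
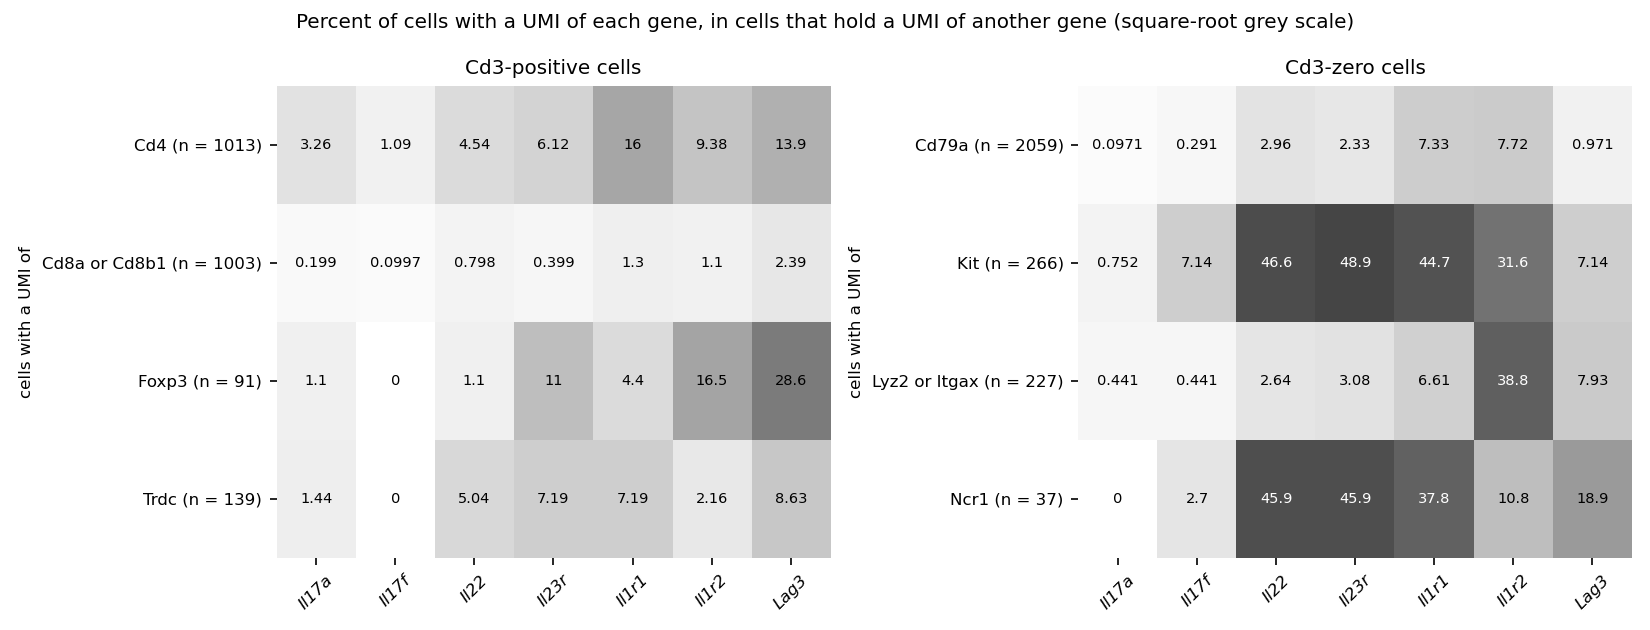
Percent of cells with a UMI of each member in overlapping subsets set by 1 or more UMIs of a marker gene, for Cd3-positive and Cd3-zero cells, all libraries together, for chosen subsets of at least 10 cells, and darker for a higher percent. Il22 reaches 46.6% in the Cd3-zero Kit cells, and Il1r2 reaches 38.8% in the Lyz2 or Itgax cells.

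The genes most alike in detection were ranked by how much more often they appeared in a member's cells than in the other cells of the class, libraries weighted by the member's cells. For Il17a among Cd3-positive cells these were Il23r (69.6% of Il17a cells, 2.98% of others), Tmem176a (71.7%, 4.43%), Tmem176b (78.3%, 5.56%), Il1r1 (71.7%, 9.73%) and Furin (91.3%, 16.4%). Il22 shared Il23r, Tmem176a and Tmem176b with that list and added Pde5a (39.0%, 1.93%) and Hk2 (37.8%, 3.72%). For Il23r they included Il17a, Ablim3, Olfr60 and Il22. Lag3 and Il1r2 had Gm49180, Areg and Ttc39c in common, Areg encoding amphiregulin, an epidermal growth factor receptor ligand, and Lag3 itself was the fifth gene of the Il1r2 list (37.0%, 7.53%). Il1r1 was led by Farp1, Prelid2 and Areg. No gene met the minimum for Il17f in this class.

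Among Cd3-zero cells Il22 was led by Ptprm (31.0%, 0.344%), Hs6st2 (42.6%, 0.536%), Ablim3, Cx3cl1 and Arhgef28. Il23r and Il1r1 shared Hs6st2 and Arhgef28 with it, the latter being in 59.5% of Il23r cells and 0.486% of others. Il17f was led by Fam155a, Apol7b and Farp1. Il1r2 had none of these and was led by Ifitm2, Tbc1d9 and Tbc1d4, with Cd80, a co-stimulatory ligand of antigen-presenting cells, in 45.7% against 5.74%. Lag3 was led by Siglech, a marker of plasmacytoid dendritic cells, in 30.9% of Lag3 cells against 0.259% of others, followed by Ly6c2, Lair1 and Klrd1.

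Beside the 7 members, 64 genes of the type 17 pathway were read: transcription factors, upstream cytokines, receptor partners, other effectors, homing receptors and checkpoint genes. This list too was chosen with earlier results of these data known. In Cd3-positive cells 0 of 50 tested passed in either direction in edgeR without a replicate term. With the term 9 were higher and 3 lower in SFB-positive mice, and the median log2 difference over the list was 0.18 against -0.00453 over all genes. The checkpoint gene Ctla4 was higher by 1.40 ± 0.24 (adjusted p = 2.00e-06), at 91.7, 194, 316 and 518 CPM. Furin, a protease that processes TGF-β, was higher by 1.43 ± 0.26 (1.30e-05), at 48.8, 27.6, 202 and 69.0 CPM. Neither gene's levels overlapped between groups, but the share of all genes so separated is not given, so this is a description only.

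Of the receptors, Il18r1, the IL-18 receptor chain, was higher by 1.37 ± 0.29 (adjusted p = 0.000259 in edgeR with the term), at 9.76, 27.2, 29.9 and 82.3 CPM, and Il1rap, the shared partner of IL-1R1, by 1.12 ± 0.32 (0.025). Rora, a nuclear receptor gene active in Th17 cells, was higher by 1.11 ± 0.25 (0.00139), at 74.1, 120, 161 and 311 CPM. The anti-inflammatory cytokine Il10 was higher by 1.37 ± 0.36 (0.00881), at 0, 10.4, 24.3 and 26.2 CPM, and the co-stimulator Icos by 0.83 ± 0.23 (0.0205). The 3 lower genes were the checkpoint genes Cd160 (-1.33 ± 0.27, 9.92e-05) and Pdcd1 (-0.97 ± 0.27, 0.0146) and the cytokine Il1b (-1.38 ± 0.39, 0.0197). Cd160 stood at 89.7, 33.1, 48.6 and 13.6 CPM, overlapping between groups. Pdcd1 stood at 52.7, 78.2, 39.2 and 41.9 CPM without overlap, again a description only. Il1b was at 0, 27.2, 0 and 12.5 CPM, so its call rests on the replicate 2 libraries. Checkpoint genes thus moved in both directions in this model, Lag3 and Ctla4 upward and Cd160 and Pdcd1 downward.

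In Cd3-zero cells 0 of 55 listed genes passed without the term, and with it 0 were higher and 1 was lower. That gene was Cxcr6, a homing receptor, at -1.98 ± 0.33 (edgeR adjusted p = 0.0243), with 386, 42.0, 52.7 and 16.1 CPM. The list median was -0.72 with the term, against -0.0236 over all genes.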

How the data were processed

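Gene UMI counts per barcode from 4 droplet libraries were used as deposited. Cell Ranger 6.0.0 (replicate 1) and 7.0.0 (replicate 2) made these counts per the file headers, while the submitters' processing notes name Cell Ranger 5.0.1 and mm10; the intron setting is not given in the sources used here. Both replicate 1 matrices also hold 15 antibody tags, not used here. The authors' deposited cell table gave the barcodes set aside as B lineage, their cluster numbers and the percent of mitochondrial UMIs. All 7 members and the pathway, marker and subset lists were chosen with earlier results of these data known.

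UMIs were added up within each library and class, and tested with edgeR 4.0.16 (TMM, filterByExpr, robust quasi-likelihood fit, Benjamini-Hochberg limit 0.05) in R 4.3.3, with DESeq2 1.42.0 as an alternative. The edgeR code was run on simulated counts with a smaller spread than these data and no replicate effect. That run checks the code only and not the error rates at the spread of these libraries. Replicate number was added as a block because it went with the Cell Ranger version in the headers, with the antibody tags and with depth. Deviations of same-numbered libraries from their group means correlated at 0.744 (Cd3-positive) and 0.671 (Cd3-zero). These correlations cannot tell those differences apart, and the labels do not name what replicate number stands for. No doublet caller was run; cells with 3 or more B-cell marker UMIs were left out as an alternative. Library totals were 7198366, 47273320, 6979187 and 83600989 UMIs in the order SFB-negative replicates 1 and 2, SFB-positive replicates 1 and 2, which is the order of values throughout. Shares have exact Clopper-Pearson 95% intervals. Pathway genes were named where they passed, at most 10 per comparison by smallest p. Most alike genes needed a member with at least 10 cells, a UMI in at least 30% of them and in at least 3 per group, and the top 5 were taken. Co-detection was described without a test. Results for 1 pathway gene are not reported here.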

Additional observations from a re-analysis of the deposited data

Results flagged for a closer look

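The SFB difference of Il17f differed between the classes of cells by a test of the difference itself: the log2 difference in Cd3-positive cells minus that in Cd3-zero cells was 10.99 in edgeR. Il17f UMIs numbered 0, 1, 20 and 158 in Cd3-positive cells and 73, 24, 0 and 11 in Cd3-zero cells, over SFB-negative replicates 1 and 2 and SFB-positive replicates 1 and 2. One cell held 111 of the 158 UMIs and another held 17 of the 20. In Cd3-zero cells 1 cell held 40 of the 73. Il17f met the count filter of this test only through libraries in which it was high.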

How the results depend on the processing

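In Cd3-positive cells the direction of the SFB difference held for all 7 members in each of 90 values over the alternatives run, and so did all 63 share differences. The number of genes called there was 0, and became 243 with the replicate block, 238 with the block and without the cell of most cytokine UMIs per library and class, 2 with DESeq2, 6 without the filter on low counts and 0 to 4 on leaving out 1 library, being 4 without SFB-negative replicate 1 and 4 without SFB-positive replicate 2. Il17a had 6.77 without SFB-positive replicate 2 and was called, like Il17f, without the filter. Leaving out 1 library left its SFB group with 1 library, so SFB calls and counts made that way have no replication in that group. In Cd3-zero cells the count of 0 became 71 with the block, 83 with the block and without that cell, 6 with DESeq2, 8 without the filter and 0 to 34 on leaving out 1 library (34 without SFB-negative replicate 1, 25 without SFB-positive replicate 2). The count between classes, 2770, became 1846 without cells with 3 or more B-cell marker UMIs and 987 to 3804 on leaving out 1 library, 987 without SFB-positive replicate 2 and 1181 without SFB-negative replicate 2, where fewer genes were tested. The interaction count of 1 became 37 without the filter, 8 with Cd3 set at 2 UMIs, 26 without B-cell marker cells and 1 to 97 on leaving out 1 library. Where not stated, the cause was not tested.

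Reversals were found in Cd3-zero cells only. The log2 difference of Il1r2 was 0.21 with the block and 0.23 with the block and without the top cytokine cell, and that of Il17a was 0.88 without that cell. Without B-cell marker cells Il23r had 0.76, Il1r1 0.49 and Il1r2 0.60. On leaving out 1 library the log2 differences ran from -8.54 to 0.75 for Il17a, -3.20 to 1.56 for Il22, -1.41 to 0.0779 for Il23r, -0.84 to 0.38 for Il1r1, -1.02 to 0.82 for Il1r2 and -2.70 to 1.5 for Lag3. Share differences, in percentage points, reversed for Lag3 after thinning (-2.11) and at 3 or more UMIs (-0.117), and for Il23r without B-cell marker cells (1.08) and at 3 or more UMIs (1.04); on leaving out 1 library they ran from -18.4 to 3.79 for Il22, -1.97 to 1.16 for Il23r, -0.477 to 0.845 for Il17a and -1.21 to 1.82 for Lag3. The alternatives without the top cytokine cell and at 3 or more UMIs were chosen after seeing the data. Single cells limit the cytokine levels: in Cd3-positive cells 1 cell held 90% of the Il17a UMIs of SFB-negative replicate 2 and 1 held 70.3% of the Il17f UMIs of SFB-positive replicate 2.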

Other observations

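Barcodes outside the authors' table with mitochondrial genes at 10% or more of their UMIs entered no comparison. In them Il22 stood at 0, 10.2, 80.6 and 6.96 CPM in SFB-negative replicates 1 and 2 and SFB-positive replicates 1 and 2, and Il17a at 0, 0.444, 0 and 4.87 CPM.

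Within the authors' B-lineage table, the clusters, used by number, differed in the IL-1 receptor genes. Cluster 4 had a UMI of Il1r2 in 6.45%, 10.4%, 3.29% and 20.5% of its cells, at 40.9, 25.1, 21.1 and 34.8 CPM, and cluster 0 in 0.602%, 1.36%, 0.540% and 3.70%, at 5.60, 4.75, 3.89 and 9.41 CPM. Cluster 4 was thus the higher of the pair in all 4 libraries in both measures, the clusters having been defined by the authors from these same cells. Il1r1 was found in 4.87% and 17.3% of cluster 3 cells in the replicate 2 libraries and in 0% of them in both replicate 1 libraries.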
